A study of Mus musculus with 23 samples.

Results

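Cytochrome P450 genes were followed through bulk RNA sequencing of mTECs, the epithelial cells of the thymic medulla, from C57BL/6 mice. A gene was taken as a member if its mouse symbol was Cyp followed by a number, a letter or letters and a number, and if its annotated type was not a pseudogene. This rule gave 94 members, all protein-coding, of the 53402 gene identifiers in the count table, and expression played no part in it. The libraries formed 4 groups, namely 4 of Aire knockout (KO) mTEChi, 7 of wild-type (WT) mTEChi, 4 of KO mTEClo and 8 of WT mTEClo. Per the labels, DAPI-negative thymus cells without CD45 and Ly51 but with EpCAM had been sorted, with high MHC class II for mTEChi and low MHC class II for mTEClo. All KO libraries were male, 2 at 5 weeks and 2 at 6 weeks of age in each gate. WT mTEChi held 5 male and 2 female libraries, 2 of them at 4 weeks and 5 at 5 weeks, and WT mTEClo held 5 male and 3 female libraries, 5 at 4 weeks and 3 at 5 weeks. The labels give neither the KO allele nor the number of mice behind a library, so the p-values measure the spread between these libraries only, which may be technical.

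P450 enzymes are heme proteins that insert an oxygen atom into fatty acids, steroids, vitamins, drugs and toxicants, and most of them draw electrons from P450 oxidoreductase in the endoplasmic reticulum or from ferredoxin in mitochondria. Liver, adrenal gland, gonads, gut and skin are their best known sites. mTECs transcribe many genes of such tissues and show the peptides to maturing thymocytes, and the nuclear protein Aire is known for driving much of this transcription. In patients with AIRE mutations several P450 proteins are known targets of autoantibodies, among them CYP21A2, CYP17A1, CYP11A1, CYP1A2 and CYP2A6, whose mouse counterparts are Cyp21a1, Cyp17a1, Cyp11a1, Cyp1a2 and Cyp2a5.

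Library totals lay between 1602125 and 3938588 counts. The 6 libraries under 2000000 counts were replicates 1 and 2 of WT mTEChi, KO mTEClo and WT mTEClo, and in WT mTEChi these were also the libraries of 4 weeks, so depth and age cannot be told apart there. Aire lay at 17.1 to 39.3 CPM (counts per 1000000 counted reads) in KO mTEChi and at 753 to 921 CPM in WT mTEChi, and at 0 to 7.58 CPM in KO mTEClo and 19.6 to 128 CPM in WT mTEClo. The 8 mTEC markers, Epcam and keratins among them, were present in every group, with summed levels of 2155 to 2663 CPM in KO mTEChi and 2046 to 2703 CPM in WT mTEChi. Level here means CPM on the TMM scale of edgeR, and a gene was called at a Benjamini-Hochberg adjusted p under 0.05 in edgeR's quasi-likelihood test over all 19310 genes that passed a filter on low counts. In sorted cells measured in bulk, fewer cells of a type and less RNA per cell cannot be told apart.

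The loss of Aire went with a smaller set of P450 genes detected in mTEChi. KO mTEChi libraries had at least 1 count for 47 to 53 of the 94 members, with a median of 51, and WT mTEChi libraries for 76 to 89, with a median of 82. The ranges do not overlap, although both WT libraries under 2000000 counts were shallower than every KO mTEChi library. Over the whole group, 32 members had 0 counts in KO mTEChi and 1 member, Cyp2c67, had 0 counts in WT mTEChi. In mTEClo the libraries detected 39 to 49 members in KO and 49 to 54 in WT, and 40 and 17 members had 0 counts over these groups. KO groups pooled 4 libraries and WT groups 7 or 8, so zeros and counts over a group are not matched for depth, here and below. A total of 3 counts is 0.299 CPM in KO mTEChi, 0.161 in WT mTEChi, 0.275 in KO mTEClo and 0.122 in WT mTEClo. The number of members averaging over 1 CPM was 36 in KO mTEChi, 68 in WT mTEChi, 33 in KO mTEClo and 34 in WT mTEClo. Detection was not counted over all genes. Without the filter on low counts, 42889 genes were tested in KO against WT mTEChi, and 7829 were called lower and 4717 higher. The median log2 change of these genes was -0.38, so falls were not confined to P450 genes.

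**Figure D1:**
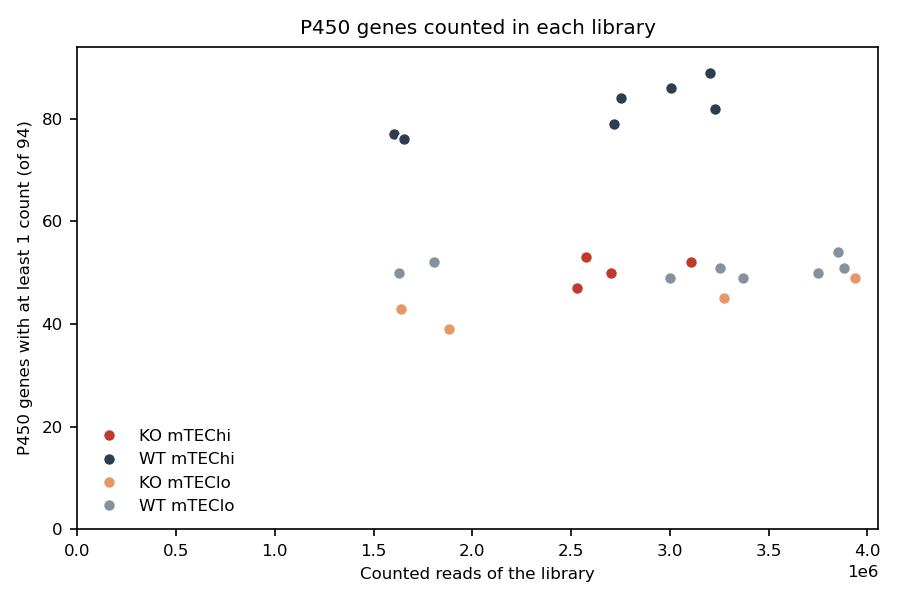
Number of the 94 P450 genes with at least 1 count in each library (vertical axis) against the counted reads of the library (horizontal axis), 1 point per library, coloured by group. WT mTEChi libraries lie at 76 to 89 members, above the 47 to 53 of KO mTEChi libraries and the 39 to 54 of mTEClo libraries.

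The summed level of all members changed less than their number. It was 709 to 851 CPM in KO mTEChi, 885 to 1046 CPM in WT mTEChi, 471 to 749 CPM in KO mTEClo and 657 to 895 CPM in WT mTEClo. Per kilobase of exon, the 5 highest members held 61.3% of the summed level in KO mTEChi, 39.9% in WT mTEChi, 50.7% in KO mTEClo and 56.3% in WT mTEClo. Cyp2a5, which oxidises coumarin and nicotine, stood first in both mTEChi groups, at 50.2 CPM per kilobase in KO and 50.6 in WT. In KO mTEChi it was followed by Cyp26a1, Cyp4f16, Cyp27a1 and Cyp2g1, at 49.8, 32.8, 29.8 and 22.7 CPM per kilobase. In WT mTEChi it was followed by Cyp1a2, Cyp4f16, Cyp26a1 and Cyp2g1, at 24.0, 23.9, 23.7 and 19.7 CPM per kilobase. The values of Cyp1a2, Cyp4f16 and Cyp26a1 lie close together there, and their order is not a result. Cyp1a2 had no count in KO mTEChi and was the member that left the leading 5.

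Of the 94 members, 45 passed the filter on low counts and were tested. In KO against WT mTEChi, 24 of the 45 were called lower and 5 higher, and 16 were not called. Over all 19310 genes tested 53.7% were called, with 28% of the tested genes lower and 25.7% higher. The median log2 change was -1.01 over the 45 members and -0.01 over all genes tested. Since a gene could pass the filter through its WT libraries alone, the tested members are a selected set. Their calls need not hold for the whole family, and the other 49 members are given by their counts. Of these 49, 45 had a lower mean in KO mTEChi, 3 a higher one and 1 no count in either group. Among them 27 had 0 counts in KO mTEChi only. Over all genes this tally was not made. Of the 24 called lower, 18 had every KO library below every WT library, and of the 5 called higher, 4 had every KO library above. Among all genes called lower and higher, 70.0% and 68.9% were free of overlap in the same way.

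**Figure D2:**
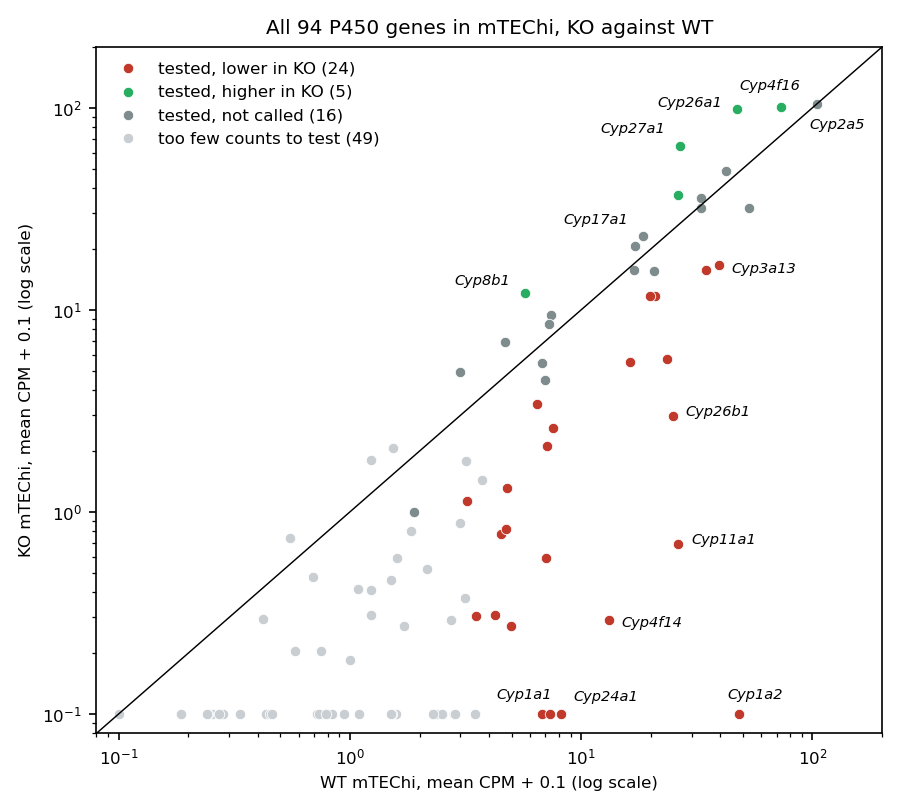
Mean level of each of the 94 P450 genes in KO mTEChi (vertical axis) against WT mTEChi (horizontal axis), in CPM plus 0.1 on log scales, with the line of equal levels. The 24 members called lower lie below the line and the 5 called higher above it, and Cyp1a2, Cyp1a1 and Cyp24a1 lie on the floor of 0 counts in KO.

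Family 1 genes encode inducible enzymes that oxidise aromatic compounds. All 3 were lower in KO mTEChi, where 28% of all genes tested were lower. Cyp1a2 (ENSMUSG00000032310, chromosome 9, 57676937 to 57683703, minus strand, GRCm38), known in liver for oxidising caffeine and aromatic amines, had 0 counts in all 4 KO mTEChi libraries. In the 7 WT mTEChi libraries it lay at 25.8 CPM at the lowest, 51.6 at the median and 65.3 at the highest. A floor of 3 counts over the KO group makes it at least 162-fold lower in KO mTEChi (adjusted p = 2.64e-10). The 2 lowest WT libraries, at 32.2 and 25.8 CPM, were those of 4 weeks and under 2000000 counts. Cyp1a1 (ENSMUSG00000032315, chromosome 9, 57687928 to 57703824, plus strand), its neighbour on the opposite strand, also had 0 counts in every KO mTEChi library and lay between 4.20 and 10.0 CPM in WT mTEChi. It was at least 24.3-fold lower in KO (adjusted p = 7.02e-09). The pair shares few sequences, with 4.79% of the 50-base stretches of Cyp1a2 transcripts found in Cyp1a1. Cyp1b1, an estrogen and retinoid oxidase of many tissues outside the liver, kept a level of 5.70, 2.86, 8.56 and 4.59 CPM in KO mTEChi, against 8.57 to 21.9 CPM in WT mTEChi. Its log2 change was -1.47 ± 0.31 (SE, adjusted p = 3.0e-04). The ranges of Cyp1b1 come close, at 8.56 CPM for the highest KO and 8.57 CPM for the lowest WT library, while those of Cyp1a1 and Cyp1a2 are far apart.

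The bases before the starts of these genes are given to show the sequence of promoters whose genes moved together, beside those of Cyp2a5, which was not called, and Cyp26a1, which was higher in KO mTEChi. Each runs 5′ to 3′ on the gene's strand over the 250 bases before the RefSeq start in GRCm38.p6, with TATAAA, the core of the TATA box, and GCGTG, the core of the element that binds the aryl hydrocarbon receptor, in capitals on either strand.
Cyp1a2, chr9:57683656-57683905, minus strand: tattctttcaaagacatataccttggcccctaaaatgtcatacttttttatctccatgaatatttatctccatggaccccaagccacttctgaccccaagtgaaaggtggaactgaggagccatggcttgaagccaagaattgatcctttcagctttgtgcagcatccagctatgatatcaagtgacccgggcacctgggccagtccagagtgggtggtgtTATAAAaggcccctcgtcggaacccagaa
Cyp1a1, chr9:57697363-57697612, plus strand: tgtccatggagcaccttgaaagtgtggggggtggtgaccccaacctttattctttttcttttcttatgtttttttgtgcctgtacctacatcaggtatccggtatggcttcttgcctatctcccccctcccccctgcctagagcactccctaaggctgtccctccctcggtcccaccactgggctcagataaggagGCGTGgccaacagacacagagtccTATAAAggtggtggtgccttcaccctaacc
Cyp2a5, chr7:26835089-26835338, plus strand: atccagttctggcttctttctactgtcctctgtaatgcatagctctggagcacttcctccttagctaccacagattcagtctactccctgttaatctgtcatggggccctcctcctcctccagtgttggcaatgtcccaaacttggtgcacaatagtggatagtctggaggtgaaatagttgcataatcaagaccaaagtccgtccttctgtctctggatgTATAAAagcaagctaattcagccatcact
Cyp26a1, chr19:37697558-37697807, plus strand: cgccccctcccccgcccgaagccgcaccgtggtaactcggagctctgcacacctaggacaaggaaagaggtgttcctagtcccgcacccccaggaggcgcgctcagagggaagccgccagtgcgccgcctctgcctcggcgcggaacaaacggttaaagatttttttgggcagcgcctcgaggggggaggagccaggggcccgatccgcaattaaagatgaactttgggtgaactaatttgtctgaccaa
TATAAA began 29 bases before the start in Cyp1a2, 30 in Cyp1a1 and 29 in Cyp2a5, and Cyp1a1 held GCGTG 54 bases before it. Cyp26a1 had neither motif in these 250 bases and 20 CG pairs, against 3 in both Cyp1a1 and Cyp1a2 and 1 in Cyp2a5. Of the 94 members 73 had a promoter in the RefSeq table. TATAAA on either strand was in 35.6% of these 73 and in 13.0% of all 27025 promoters, and GCGTG was in 20.5% and 28.2%. The median number of CG pairs was 2 in the members and 6 in all promoters. Among the 20 members called lower in KO mTEChi that had a promoter, 5 held TATAAA and 7 held GCGTG, and among the 39 that had too few counts to test, 19 held TATAAA and 3 held GCGTG. These matches describe letters only.

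The 6 members that make steroid hormones changed unevenly. Cyp11a1 (ENSMUSG00000032323, chromosome 9, 58006411 to 58027023, plus strand), the mitochondrial enzyme that starts steroid synthesis by cutting the cholesterol side chain, lay at 0.439, 0.409, 0.685 and 0.835 CPM in KO mTEChi, against 11.2 to 36.8 CPM in WT mTEChi with a median of 28.9. It fell by 5.38 ± 0.54 in log2 units (SE, adjusted p = 6.76e-09). Its groups are far apart, and the lowest 2 WT libraries, at 11.2 and 15.0 CPM, were again those of 4 weeks. Cyp11b1, which completes the synthesis of glucocorticoids, had 0 counts in KO mTEChi and 2.70 to 11.3 CPM in WT mTEChi, at least 22.2-fold lower (adjusted p = 1.38e-07). Some 18.1% of its 50-base stretches are found in other genes, most often in Cyp11b2, so its reads may be shared. Cyp19a1, the aromatase that makes estrogens, had 2 counts in all, both in 1 KO mTEChi library, against 3.93 to 6.07 CPM in WT mTEChi. The ratio of pooled counts was 25.1-fold lower in KO (95% counting interval 6.75 to 210, adjusted p = 1.8e-06). Cyp21a1, the 21-hydroxylase of the adrenal cortex, was too low to test, with 3 counts in KO mTEChi and 19 in WT mTEChi. Scaled to depth, that is a ratio of 3.41-fold lower in KO (95% counting interval 1.00 to 18.0). Some 23.8% of the stretches of Cyp21a1 occur in other genes.

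Cyp17a1, the enzyme that leads steroids toward androgens and glucocorticoids, did not follow the others. It lay at 11.8, 13.9, 33.9 and 32.6 CPM in KO mTEChi, against 13.9 to 26.4 CPM in WT mTEChi, and the groups overlap (log2 change 0.27 ± 0.27, SE, adjusted p = 0.425). The first 2 of these KO libraries were of 5 weeks and the other 2 of 6 weeks. Among male libraries of 5 weeks alone, the log2 change was -0.70 and passed the test in edgeR (adjusted p = 0.0394), and with age in weeks as a term it was -0.20 and did not, so the direction changed with these settings. In mTEClo it was higher without Aire, at 3.79, 4.38, 4.47 and 5.83 CPM in KO and 0 to 2.36 CPM in WT, with a log2 change of 1.70 ± 0.44 (SE, adjusted p = 0.0064) and no overlap. With age as a term this change was 1.02 and was no longer called.

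**Figure D3:**
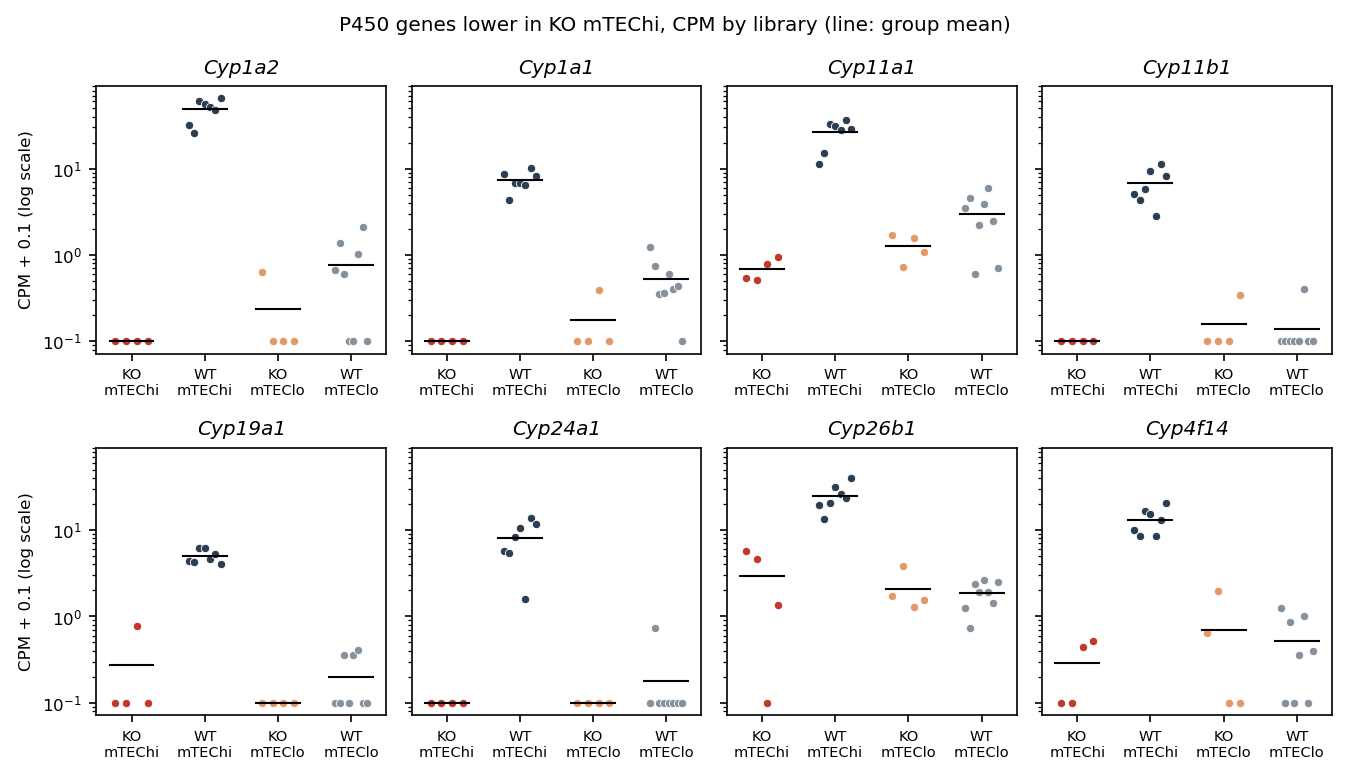
Level of 8 P450 genes called lower in KO mTEChi, in CPM plus 0.1 on a log scale (vertical axis), by library in the 4 groups (horizontal axis), with a line at the group mean. Cyp1a2, Cyp1a1, Cyp11b1 and Cyp24a1 have no count in any KO mTEChi library, and all 7 WT mTEChi libraries of each gene lie above those of KO.

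Of the 3 vitamin D members, the 2 that were tested were lower in KO mTEChi, where 28% of all genes tested were lower. Cyp24a1, which breaks down active vitamin D, had 0 counts in KO mTEChi and 1.50 to 13.6 CPM in WT mTEChi, at least 27.1-fold lower (adjusted p = 7.93e-07). Cyp27b1, which activates vitamin D, lay at 2.19, 1.23, 6.16 and 3.76 CPM in KO mTEChi, against 2.10 to 9.64 CPM in WT mTEChi, and the groups overlap. Its log2 change of -1.06 ± 0.36 (SE, adjusted p = 0.0158) was -0.90 without KO mTEChi replicate 1 and -0.78 without replicate 2, and was then not called. Cyp2r1, a vitamin D 25-hydroxylase, was too low to test and overlapped, with means of 1.97 CPM in KO mTEChi and 1.44 CPM in WT mTEChi. The vitamin D receptor, Vdr, averaged 331 ± 42.8 CPM in KO mTEChi and 216 ± 10.2 CPM in WT mTEChi (SD, n = 4 and 7), a log2 change of 0.57 ± 0.09 (SE, adjusted p = 3.15e-06).

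Of the 3 members that clear retinoic acid, 1 was called higher, 1 lower and 1 not called in KO mTEChi. Cyp26a1 lay at 109, 86.7, 95.8 and 103 CPM in KO mTEChi, against 36.6 to 63.4 CPM in WT mTEChi. It was higher in KO with no overlap, by 1.19 ± 0.21 in log2 units (SE, adjusted p = 2.76e-05). Cyp26b1 lay at 5.70, 4.50, 0 and 1.25 CPM in KO mTEChi, against 13.2 to 40.0 CPM in WT mTEChi, and fell by 3.10 ± 0.41 in log2 units (SE, adjusted p = 5.4e-07). These groups do not overlap either. Cyp26c1 lay at 6.96 to 10.9 CPM in KO mTEChi and 4.20 to 11.1 CPM in WT mTEChi and was not called (log2 change 0.60 ± 0.29, SE, adjusted p = 0.083).

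Members of bile acid and cholesterol metabolism rose and fell in KO mTEChi. Cyp27a1 (ENSMUSG00000026170, chromosome 1, 74713574 to 74737892, plus strand), the mitochondrial sterol 27-hydroxylase, lay at 59.2, 70.0, 68.5 and 61.0 CPM in KO mTEChi, against 16.2 to 32.1 CPM in WT mTEChi. It was higher in KO with no overlap, by 1.23 ± 0.19 in log2 units (SE, adjusted p = 2.87e-06). Cyp8b1, the sterol 12-alpha-hydroxylase that makes cholic acid in liver, lay at 14.0, 16.0, 9.24 and 8.77 CPM in KO mTEChi, against 3.60 to 6.78 CPM in WT mTEChi, a log2 change of 1.07 ± 0.30 (SE, adjusted p = 0.0034). Both genes moved up, and no KO library of either came as low as a WT library. Cyp39a1, an oxysterol hydroxylase, went the other way, at 2.40 to 2.63 CPM in KO mTEChi and 5.13 to 9.29 CPM in WT mTEChi (log2 change -1.60 ± 0.29, SE, adjusted p = 3.0e-05). Cyp46a1, the cholesterol 24-hydroxylase of neurons, had 2 counts in KO mTEChi, both in 1 library, and 0.600 to 5.36 CPM in WT mTEChi. That is a ratio of 17.5-fold lower in KO (95% counting interval 4.66 to 148, adjusted p = 1.09e-04), with overlap through 1 WT library. Cyp7b1 averaged 20.6 ± 3.31 CPM in KO mTEChi and 17.1 ± 2.82 CPM in WT mTEChi (SD, n = 4 and 7) and was not called. Cyp7a1, the rate-limiting enzyme of bile acid synthesis, was counted in WT mTEChi alone, with 16 counts, and was too low to test.

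**Figure D4:**
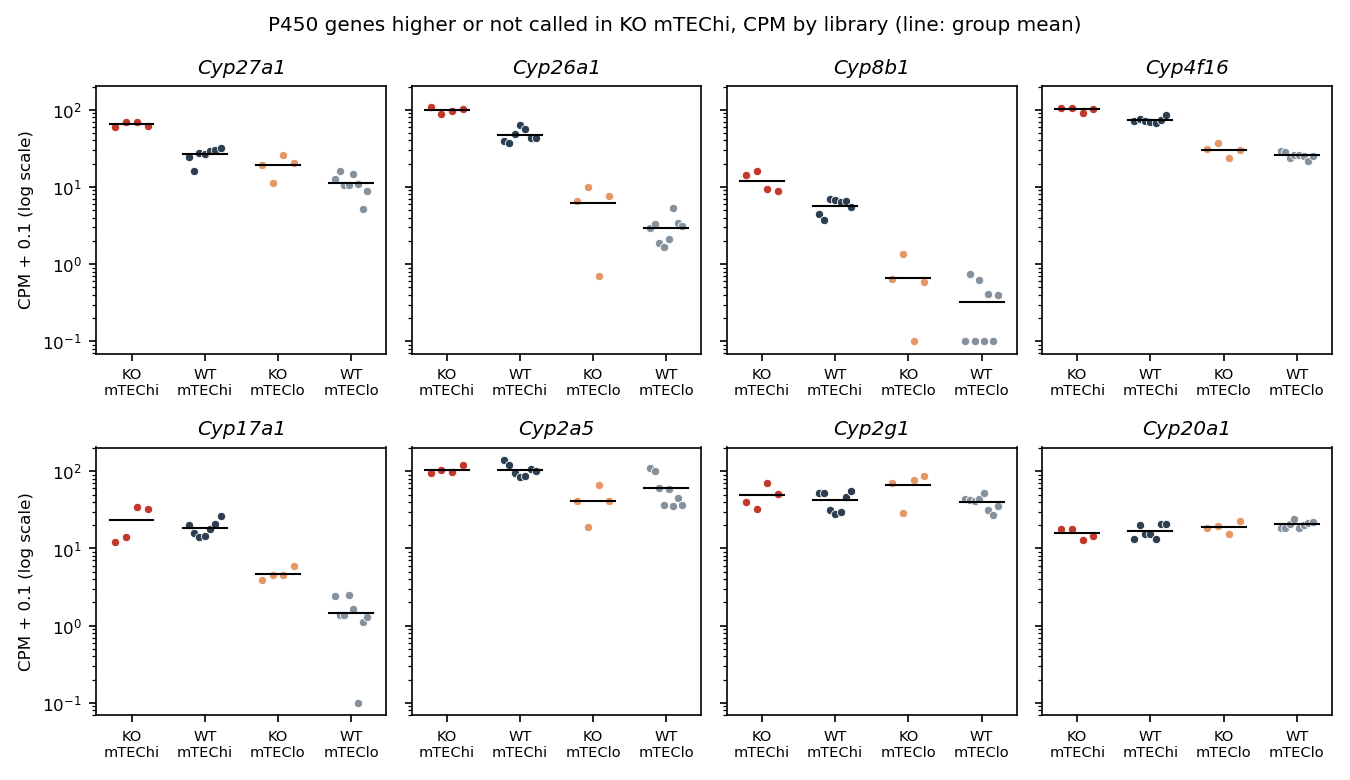
Level of 8 P450 genes that were called higher or not called in KO mTEChi, in CPM plus 0.1 on a log scale (vertical axis), by library in the 4 groups (horizontal axis), with a line at the group mean. Cyp27a1, Cyp26a1, Cyp8b1 and Cyp4f16 lie higher in KO than in WT mTEChi without overlap, and the KO and WT mTEChi libraries of Cyp17a1, Cyp2a5, Cyp2g1 and Cyp20a1 overlap.

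Family 2, the largest with 48 members, holds many drug-oxidising enzymes of liver and airway. Of its 15 tested members, 6 were lower, 1 was higher and 8 were not called in KO mTEChi. Over all genes tested there, 28% were lower and 25.7% higher. Cyp2f2, an enzyme of airway club cells, lay at 2.19, 1.23, 7.19 and 11.7 CPM in KO mTEChi, against 15.4 to 31.2 CPM in WT mTEChi, and fell by 2.03 ± 0.38 in log2 units (SE, adjusted p = 1.19e-04) with no overlap. Cyp2b10, the phenobarbital-inducible enzyme of liver, had 2 counts in KO mTEChi and 1.24 to 7.14 CPM in WT mTEChi, a ratio of 22.4-fold lower in KO (95% counting interval 6.00 to 188, adjusted p = 1.99e-05). Cyp2j6, Cyp2s1, Cyp2d12 and Cyp2ab1 were also lower, by 0.81, 0.82, 1.98 and 1.65 on the log2 scale, and the KO and WT libraries of Cyp2s1, Cyp2d12 and Cyp2ab1 overlap. Cyp2j13 averaged 37.1 ± 6.56 CPM in KO mTEChi and 26.1 ± 5.46 CPM in WT mTEChi (SD, n = 4 and 7), a log2 change of 0.46 ± 0.20 (SE, adjusted p = 0.0477). Its libraries overlap, and leaving out any 1 of KO mTEChi replicates 1, 2 and 4 or WT mTEChi replicates 1 and 4 to 7 ended the call, with values of 0.31 to 0.46. The call of Cyp2j13 was lost in 18 of 25 alternative settings. Among them were RLE and upper quartile factors, DESeq2, males only and the replicate block.

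The highest member showed no such change. Cyp2a5 (ENSMUSG00000005547, chromosome 7, 26835305 to 26843548, plus strand) lay at 95.2, 104, 96.5 and 121 CPM in KO mTEChi, against 84.9 to 141 CPM in WT mTEChi (log2 change -0.12 ± 0.27, SE, adjusted p = 0.73). Of its 50-base stretches 37.0% occur in other genes, mostly in Cyp2a4, so the 2 genes may trade reads. Cyp2g1, known from the olfactory epithelium, and Cyp20a1, an orphan P450 of many tissues, averaged 48.6 ± 16.7 and 15.6 ± 2.60 CPM in KO mTEChi (SD, n = 4). In WT mTEChi they averaged 42.2 ± 12.0 and 16.8 ± 3.39 CPM (SD, n = 7), and neither was called. Cyp2e1, the ethanol-inducible enzyme, had 0 counts in KO mTEChi and 1.61 to 3.72 CPM in WT mTEChi, at least 9.21-fold lower, but did not pass the filter. In the Cyp2c subfamily, 12 of 15 members had 0 counts in KO mTEChi, and the subfamily held 28 counts there against 188 in WT mTEChi. Replicate 3 of KO mTEChi held 25 of the 28, of which 20 were of Cyp2c29, and the other KO libraries held 3 in all. With that library the summed levels overlap, at 0 to 8.56 CPM in KO mTEChi and 6.78 to 12.9 CPM in WT mTEChi. Several of its members share much of their sequence, so their counts are read as a sum.

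Family 3 members are the main drug-oxidising enzymes of liver and gut, and all 3 tested were lower in KO mTEChi. Over all genes tested there, 28% were lower, and these 3 are a selected set of the family, as stated above. Cyp3a13 lay at 11.8, 11.9, 22.9 and 19.6 CPM in KO mTEChi, against 24.5 to 57.0 CPM in WT mTEChi (log2 change -1.25 ± 0.27, SE, adjusted p = 3.35e-04). Cyp3a11, the most abundant member of the subfamily in mouse liver, averaged 0.493 ± 0.381 CPM in KO mTEChi and 6.92 ± 3.02 CPM in WT mTEChi (SD, n = 4 and 7), a log2 change of -3.69 ± 0.72 (SE, adjusted p = 1.4e-04). Neither gene overlaps between the groups. Cyp3a16 fell by 2.95 on the log2 scale. All 7 members of the subfamily had counts in KO mTEChi, where they summed to 15.1 to 27.4 CPM, against 43.2 to 78.6 CPM in WT mTEChi.

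Family 4 members hydroxylate fatty acids and eicosanoids. Of 9 tested, 4 were lower, 1 was higher and 4 were not called in KO mTEChi, beside 28% lower and 25.7% higher of all genes. Cyp4f14, which inactivates leukotrienes, had 2 counts in KO mTEChi, in 2 libraries, and 8.40 to 20.4 CPM in WT mTEChi. Its ratio was 67.6-fold lower in KO (95% counting interval 18.5 to 562, adjusted p = 1.61e-08). Cyp4f18, known in neutrophils for the same task, lay at 1.64 to 2.51 CPM in KO mTEChi and 4.96 to 9.28 CPM in WT mTEChi, and Cyp4v3, a fatty acid hydroxylase, at 11.0 to 21.9 CPM in KO and 24.5 to 47.7 CPM in WT. They fell by 1.97 and 1.15 on the log2 scale, both without overlap. Cyp4f16 was higher, at 105, 104, 91.7 and 102 CPM in KO mTEChi, against 67.5 to 85.7 CPM in WT mTEChi (log2 change 0.42 ± 0.10, SE, adjusted p = 7.59e-04). It shares 16.3% of its stretches with Cyp4f37. The summed levels of the 9 Cyp4f members overlapped, at 187 to 198 CPM in KO mTEChi and 181 to 206 CPM in WT mTEChi. The 5 Cyp4a members, known for fatty acid omega-hydroxylation in liver and kidney, had 0 counts in KO mTEChi and 119 in WT mTEChi. In the WT mTEChi libraries they summed to 1.20 to 12.1 CPM.

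The same comparison in mTEClo, where Aire itself is low, gave fewer calls. In KO against WT mTEClo, 6 of the 45 tested members were lower, 4 were higher and 35 were not called, while 21.7% of all genes tested were called, 9.69% lower and 12% higher. The median log2 change was -0.23 over the 45 members and 0.01 over all genes. Cyp2f2 was the highest member per kilobase in WT mTEClo and the second highest in KO mTEClo. It lay at 44.4, 36.9, 74.5 and 69.9 CPM in KO mTEClo, against 100 to 188 CPM in WT mTEClo, and fell by 1.13 ± 0.25 in log2 units (SE, adjusted p = 0.0022) with no overlap. Without the 6 libraries under 2000000 counts the change of Cyp2f2 was -0.55 and not called (edgeR, adjusted p = 0.0901). Cyp39a1 fell by 0.85, Cyp4f39 by 0.96 and Cyp4v3 by 0.62 on the log2 scale. Cyp2d12 averaged 0.441 ± 0.397 CPM in KO mTEClo and 5.90 ± 4.58 CPM in WT mTEClo, and Cyp2d34 averaged 0.666 ± 0.838 CPM in KO mTEClo and 2.10 ± 0.89 CPM in WT mTEClo (SD, n = 4 and 8). They fell by 3.63 and 1.92 on the log2 scale, with overlap. Cyp2d34 lost its call without KO mTEClo replicate 3 or 4 or WT mTEClo replicate 3, at -1.42 to -1.60, and Cyp4v3 without KO mTEClo replicate 1, 2 or 3 or WT mTEClo replicate 4, at -0.50 to -0.62.

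The rises in mTEClo were of Cyp17a1, Cyp26a1, Cyp27a1 and Cyp2ab1. Cyp26a1 lay at 6.50, 10.0, 0.596 and 7.53 CPM in KO mTEClo, against 1.57 to 5.19 CPM in WT mTEClo, with a log2 change of 1.19 ± 0.39 (SE, adjusted p = 0.0299). The third KO library lies below every WT library and the other 3 lie above them. Cyp27a1 lay at 18.9, 11.3, 25.9 and 20.6 CPM in KO mTEClo, against 5.04 to 15.9 CPM in WT mTEClo (log2 change 0.84 ± 0.22, SE, adjusted p = 0.0066). Without KO mTEClo replicate 3 it was 0.66 and not called. Cyp26a1 lost its call without KO mTEClo replicate 1, 2 or 4 or WT mTEClo replicate 3 or 4, at 0.89 to 1.13. Its call was lost in 13 of 25 alternative settings. Among them were no filter, no sex term, males only, only the groups compared and the replicate block. Cyp2ab1 rose by 1.23 ± 0.43 (SE, adjusted p = 0.0396 in edgeR). It lost its call without KO mTEClo replicate 3 or WT mTEClo replicate 1, 3, 7 or 8, at 0.87 to 1.20. The call of Cyp2ab1 was lost in 10 of 24 alternative settings, among them DESeq2, only the groups compared and the replicate block. With age in weeks as a term none of the 4 rises was called, nor were the falls of Cyp2d12, Cyp2d34, Cyp4f39 and Cyp4v3. Without the 6 libraries under 2000000 counts, Cyp26a1, at 0.83, Cyp4f39, at -0.54, and Cyp4v3, at -0.38, lost their calls. The KO mTEClo libraries were of 5 or 6 weeks and those of WT of 4 or 5 weeks.

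Set side by side, 4 members were called lower in KO in both gates, Cyp2d12, Cyp2f2, Cyp39a1 and Cyp4v3, and 2 were called higher in both, Cyp26a1 and Cyp27a1. Of all genes called lower in KO mTEChi 20.9% were also called lower in KO mTEClo, and of those called higher 28.1% were also higher there. Of these 6 members, Cyp39a1 alone kept its mTEClo call both with age as a term and without the 6 libraries under 2000000 counts. A further 19 were lower in mTEChi and not called in mTEClo, and Cyp2ab1 was lower in mTEChi and higher in mTEClo. Whether the effect of KO differed between gates was tested in the same fit. The effect in mTEChi was the lower one for 12 of 45 members and the higher one for 1, and 24.8% of all genes differed, 14% and 10.8% in these directions. Over all genes these were 2699 and 2093 calls, and with upper quartile factors 3169 and 1441. The smallest p-values among the 12 were those of Cyp4f18, Cyp46a1 and Cyp2ab1, with differences in log2 change of -3.03 ± 0.66, -4.78 ± 1.05 and -2.87 ± 0.68 (SE, adjusted p = 0.0011, 0.0011 and 0.0022). Cyp2d34 was the 1 with the higher effect in mTEChi, by 2.77 ± 0.69 (SE, adjusted p = 0.0038). Cyp1a1 and Cyp1a2 were not among the members that differed, with 1 count each in KO mTEClo and 9 and 14 counts in WT mTEClo.

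**Figure D5:**
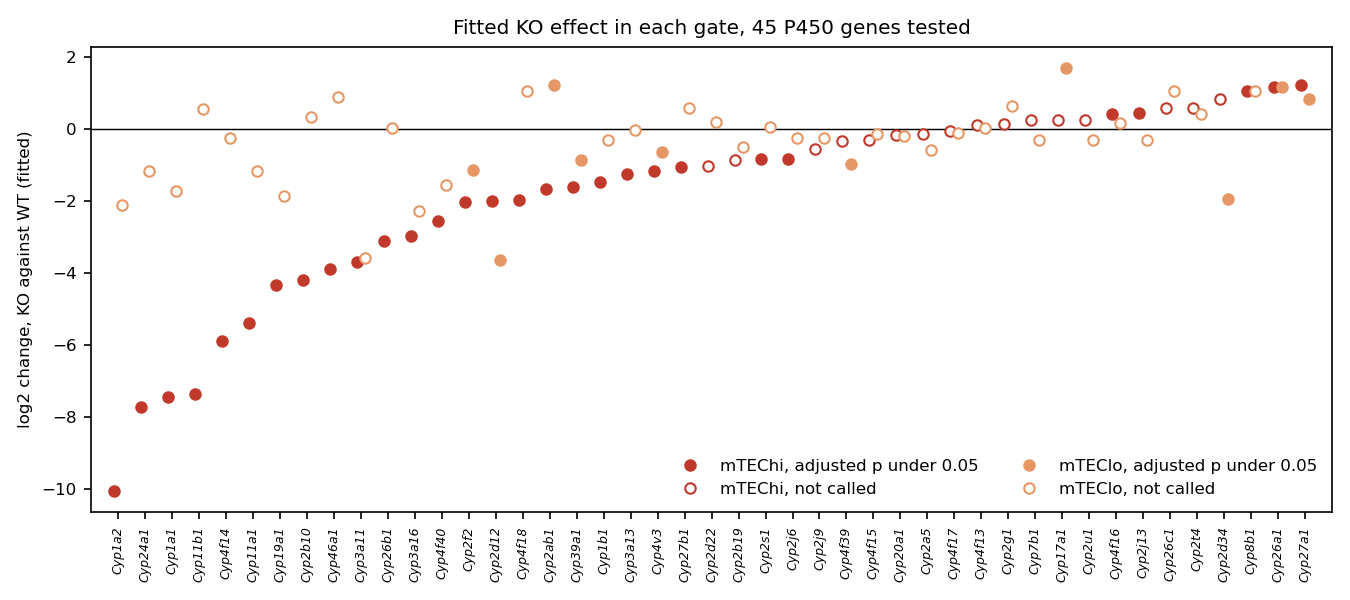
Fitted log2 change, KO against WT, of the 45 tested P450 genes in mTEChi and mTEClo (vertical axis), in the order of the change in mTEChi (horizontal axis). Filled points were called and open points were not, and fitted values of genes with 0 counts in a group depend on the prior count.

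Most tested members differed between the gates of WT mice. In WT, 27 of 45 were higher in mTEChi, 9 lower and 9 not called, and 70.1% of all genes were called, 36.7% higher and 33.4% lower. All 4 tested steroid hormone members, all 3 retinoic acid members and all 3 tested family 3 members were higher in WT mTEChi. A member could pass the filter through its WT mTEChi libraries alone, so the tested members are a selected set here too. Cyp11b1, Cyp19a1 and Cyp3a16, for instance, had 1, 3 and 3 counts in WT mTEClo. These calls therefore need not hold for the whole of a family. Cyp1a2 averaged 48.3 ± 14.4 CPM in WT mTEChi and 0.661 ± 0.718 CPM in WT mTEClo (SD, n = 7 and 8), a log2 difference of 6.33 ± 0.36 (SE, adjusted p = 1.14e-13). Cyp26a1 averaged 47.1 ± 9.70 CPM in WT mTEChi and 2.87 ± 1.15 CPM in WT mTEClo, and Cyp17a1 18.4 ± 4.42 CPM and 1.37 ± 0.75 CPM, with log2 differences of 4.11 ± 0.24 and 3.71 ± 0.31 (SE). Cyp24a1 and Cyp11b1 had 1 count each in WT mTEClo, with ratios of 206-fold and 170-fold higher in WT mTEChi (95% counting intervals 36.4 to 8179 and 30.0 to 6772). The members lower in WT mTEChi included Cyp1b1 at 16.1 ± 4.83 CPM against 77.2 ± 10.6 CPM in WT mTEClo, and Cyp2f2 at 23.5 ± 5.60 CPM against 127 ± 28.6 CPM. Cyp2d22, Cyp2j9, Cyp39a1, Cyp4f17, Cyp2j6, Cyp2t4 and Cyp20a1 were lower too. The change of Cyp20a1 was -0.31 ± 0.13 (SE, adjusted p = 0.0365 in edgeR). It lost its call without any 1 of WT mTEChi replicates 1 and 3 to 5 or WT mTEClo replicates 4 and 8. The call of Cyp20a1 was lost in 16 of 28 alternative settings. Among them were RLE and upper quartile factors, DESeq2, no filter, age added, males only and the replicate block.

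Without Aire fewer members were called between the gates, in a comparison of 4 against 4 libraries rather than 7 against 8. Fewer libraries give fewer calls, so the counts of KO and WT are not matched. In KO, 14 of 45 were higher in mTEChi, 9 lower and 22 not called, while 57.2% of all genes were called, 29.2% higher and 28% lower. Of the 27 members higher in mTEChi of WT, 12 were higher in mTEChi of KO, 14 were not called and 1, Cyp46a1, was lower. Of all genes higher in mTEChi of WT, 62.6% were higher, 32.4% not called and 5.01% lower in mTEChi of KO. Among those higher in KO mTEChi were Cyp8b1, at 12.0 ± 3.55 CPM in KO mTEChi and 0.570 ± 0.516 CPM in KO mTEClo (SD, n = 4 each), and Cyp26a1, at 98.8 ± 9.70 CPM and 6.16 ± 3.99 CPM. Cyp2j13 and Cyp4f16 were also higher in KO mTEChi, by 3.36 and 1.75 on the log2 scale, and Cyp2d22, Cyp1b1 and Cyp2f2 were lower, by 3.88, 3.42 and 3.35.

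Several mouse P450 genes are known to differ by sex in liver. Among WT libraries, female against male, edgeR's test called 0 of the 45 members and 0.0414% of all genes, 0.0259% lower and 0.0155% higher in females, and 2 members had an unadjusted p under 0.05. DESeq2 called 0 members as well. With 2 and 3 female libraries per gate, small differences were not detectable.

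Genes that serve P450 enzymes were called in both directions in KO mTEChi, beside 28% lower and 25.7% higher of all genes tested. Both counts lie below these shares for electron donors and for heme genes. Of 9 tested electron donors 2 were lower and 2 higher, with Fdxr, which feeds mitochondrial P450 enzymes, higher by 0.70 ± 0.13 in log2 units (SE, adjusted p = 7.71e-05), and Por, the reductase of the microsomal ones, was not called at 69.7 CPM in KO and 65.0 CPM in WT. Of 11 genes of heme synthesis and breakdown 2 were lower and 2 higher, among them Alad and Alas1 by 1.23 and 0.70. Of 26 nuclear receptors and factors known to act on P450 genes 7 were lower and 8 higher. Nr5a1, the master factor of steroid-making cells, fell by 3.92 ± 0.62 and Hnf4a, a factor of liver and gut, by 2.22 ± 0.39 in log2 units (SE, adjusted p = 5.27e-06 and 2.76e-05), while Ahr, the receptor that induces family 1, was not called at 15.8 CPM in KO and 14.1 CPM in WT. Of 30 other oxidising and hydrolysing enzymes of drug metabolism 22 were lower and 5 higher, with a median log2 change of -1.75, led by Aox3, Ces1a and Aldh3a1. Of 16 partners in steroid synthesis 8 were lower and 2 higher, with Akr1c18 lower by 6.59 and Tspo higher by 1.69. Of 16 eicosanoid enzymes 4 were lower and 4 higher. In KO mTEClo the same 6 lists had 1, 0, 2, 6, 1 and 1 lower and 3, 5, 4, 3, 1 and 5 higher, beside 9.69% and 12% of all genes.

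Calls of markers of other cell types in KO mTEChi stand beside 28% lower and 25.7% higher of all genes tested. In lists this short, counts near these shares are not a result about a cell type. Of the thymocyte markers 4 of 8 passed the filter, and of the endothelial markers 5 of 7. Hepatocyte markers were lower in 6 of 7 tested and none was higher, with summed levels of 21.1 to 42.6 CPM in KO mTEChi and 107 to 155 CPM in WT mTEChi, and Alb, Serpina1a, Fgb and Tat were at 0 in KO mTEChi. Enterocyte markers were lower in 7 of 8, with sums of 114 to 151 CPM in KO and 224 to 367 CPM in WT, and Cdx2 was at 0 in KO. Markers of macrophages and dendritic cells were lower in 6 and higher in 2 of 8, with sums of 358 to 411 CPM in KO and 296 to 371 CPM in WT. Fibroblast markers were lower in 4 and higher in 1 of 7, with sums of 194 to 213 CPM in KO and 199 to 371 CPM in WT. Endothelial markers were lower in 3 of 5, with sums of 44.2 to 68.1 CPM and 60.1 to 97.5 CPM, and thymocyte markers in 3 of 4, with sums of 33.9 to 45.1 CPM and 51.1 to 66.3 CPM, in KO and WT. B cell markers were lower in 1 and higher in 2 of 4, with sums of 107 to 150 CPM in KO and 60.0 to 89.4 CPM in WT. Markers of cortical epithelium were lower in 2 and higher in 2 of 5, with sums of 359 to 417 CPM in KO and 260 to 334 CPM in WT. In mTEClo, sums for macrophages and dendritic cells were 106 to 142 CPM in KO and 38.2 to 68.7 CPM in WT. B cell sums were 23.8 to 36.9 and 12.8 to 19.5 CPM, and cortical sums 255 to 472 and 188 to 227 CPM, in KO and WT. Hepatocyte sums were lower, at 3.25 to 6.85 CPM in KO and 9.70 to 28.7 CPM in WT. The sums of the other lists overlapped between KO and WT mTEClo. The part of these lists in the P450 results of either gate was not tested.

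Of the 5 mouse counterparts of human P450 autoantigens, the level in WT mTEChi and the change without Aire had no common pattern. Per kilobase of exon, Cyp2a5 stood first among all members in WT mTEChi and Cyp1a2 second, and in KO mTEChi Cyp2a5 stood first and Cyp1a2 had no count. Cyp11a1 was lower in KO mTEChi, Cyp17a1 and Cyp2a5 were not called, and Cyp21a1 was too low to test.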

How the data were processed

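Total RNA of sorted mTECs had been made into libraries from oligo-dT and not-so-random priming and cut by the Tn5 transposase. The strand is not kept, so overlapping genes and near-identical copies can exchange reads. The deposited table used here holds the authors' counts per Ensembl gene, not normalized, in 1 column for each of 23 libraries. Per the submitters' processing notes the builds were mm10 and GRCm38 and the tools included HTSeq 0.11.2, STAR 2.7.3a, edgeR, Picard 2.21.1, fastp 0.20.0 and SAMtools 1.9, with no role or order given. The authors' normalized table was not used here.

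Here, filterByExpr with the groups and a minimum count of 10 chose the genes to test. TMM factors and the robust quasi-likelihood model, with terms for group and sex, were fitted to all 23 libraries in R 4.3.3 with edgeR 4.0.16. Adjusted p-values are Benjamini-Hochberg over the 19310 genes tested, and the SE of a log2 change was computed as its absolute value over the square root of F. CPM used the TMM library sizes. A group at 0 was given a floor of 3 counts over the group, and ratios with 1 to 3 counts have exact 95% intervals. Floors and intervals cover counting error only. Exon lengths, positions and transcripts came from GENCODE of GRCm38, and promoters from RefSeq on GRCm38.p6. The scripts were tested on simulated data.

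The members and lists were chosen with earlier results of these data known. Members given in full were 20 fixed ones, the called members of smallest p in each comparison and direction, and the 5 highest per kilobase in WT mTEChi. A member not given with values is covered by the counts of its family. The SE of the difference between gates could not be computed for Cyp24a1.

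Alternatives were a threshold of 0.01, an added fold change of 2, upper quartile and RLE factors, no filter, DESeq2 1.42.0, only the groups compared, no sex term, age added, males only, a term for or removal of the 6 libraries under 2000000 counts, a replicate block, and each library left out. Male libraries of 5 weeks were added after seeing the data.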

Additional observations from a re-analysis of the deposited data

Results flagged for a closer look

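For values with a normal spread, chance sets 1 library apart in about 1 in 20 groups, a rate that need not hold for sparse counts. Among 152 combinations of a member and a group, 16 had a library far from the others of its group by Dixon's test at 95%. In 9 of them 1 library had counts and all others of the group were at 0, which this test always flags. For these 9 the value is that library's level. These were Cyp19a1 at 0.685 CPM and Cyp46a1 at 0.818 CPM in KO mTEChi, and Cyp1a2 at 0.541 CPM, Cyp1a1 at 0.298 CPM, Cyp11b1 at 0.243 CPM and Cyp21a1 at 0.243 CPM in KO mTEClo. The others of this kind were Cyp24a1 at 0.636 CPM, Cyp11b1 at 0.305 CPM and Cyp2e1 at 0.262 CPM in WT mTEClo.

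The other 7 had counts in more libraries. Cyp26b1 was at 3.76 CPM in replicate 2 and Cyp2j13 at 5.96 CPM in replicate 3 of KO mTEClo, next to 1.62 and 2.71 CPM in the nearest libraries. Cyp2t4 was at 4.09 CPM in replicate 2 of KO mTEChi, with the nearest at 7.53 CPM. Cyp2ab1 was at 6.78 CPM in replicate 3 and Cyp4f16 at 85.7 CPM in replicate 7 of WT mTEChi, with the nearest at 3.62 and 75.0 CPM. In WT mTEClo, Cyp2b10 was at 0.787 CPM in replicate 4 and Cyp3a11 at 2.35 CPM in replicate 7, with the nearest at 0.305 and 0.636 CPM.

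For 13 members the KO effect differed between the gates by the test of the difference itself. The effect in mTEChi minus that in mTEClo, on the log2 scale, was -3.03 for Cyp4f18, -4.78 for Cyp46a1, -2.87 for Cyp2ab1, -4.23 for Cyp11a1, -3.13 for Cyp26b1, -5.64 for Cyp4f14 and -1.16 for Cyp1b1. It was -1.65 for Cyp27b1, -4.52 for Cyp2b10, -1.43 for Cyp17a1, -7.90 for Cyp11b1, -1.22 for Cyp3a13 and 2.77 for Cyp2d34. The value of Cyp11b1, with 0 counts in KO mTEChi, depends on the prior count of the fit.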

How the results depend on the processing

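Counts of called members stayed within 1.5 times those reported except as follows. Without the filter on low counts 93 members were tested. Of these, 43 were lower in KO mTEChi, 22 of them among the 24, and 58 were higher in mTEChi of WT, among them all 27. Of 42889 genes tested at this setting, 7829 were lower in KO mTEChi and 12690 were higher in mTEChi of WT. With an added fold change of 2, 3 members were higher in KO mTEChi, 3 lower in KO mTEClo and 5 lower in mTEChi of WT, in place of 5, 6 and 9. At a threshold of 0.01, 3 were lower and 2 higher in KO mTEClo, and the KO effect was lower in mTEChi for 6. With age added, 3 were lower and 0 higher in KO mTEClo. Higher calls in KO mTEClo numbered 1 with only the groups compared and 2 with the replicate block, in place of 4. Deviations of same-numbered libraries correlated between -0.118 and 0.0939 in KO against WT, between -0.193 and 0.202 across the gates of WT and between 0.0588 and 0.137 across those of KO, and in no comparison was every pair over 0.1. With males only, the KO effect was lower in mTEChi for 6 and higher for 0, in place of 12 and 1. The cause of these changes was not tested.

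With each library left out in turn, 22 to 29 members were lower and 4 to 5 higher in KO mTEChi, and 4 to 6 lower and 2 to 5 higher in KO mTEClo. The KO effect was lower in mTEChi for 9 to 15 and higher for 1 to 2. In WT, 8 to 10 were lower and 26 to 27 higher in mTEChi, in KO 8 to 13 and 13 to 15, and by sex 0. The 2 higher calls in KO mTEClo came without replicate 3 of KO mTEClo or of WT mTEClo, and the 2 higher KO effects without KO mTEClo replicate 3 or 4. Without the 6 libraries under 2000000 counts, 30 members were lower and 4 higher in KO mTEChi, and among male libraries of 5 weeks 27 and 6. Upper quartile factors moved the median log2 change of all genes in KO mTEChi to -0.12, against -0.01 with TMM, and gave 24 members lower and 4 higher. Over all genes, calls in KO mTEClo numbered 1504 with age added and 2240 at 0.01, in place of 4186. An added fold change of 2 left 4492 in KO mTEChi and 1506 in KO mTEClo, and without the filter 19799 were called between the gates of WT, in place of 10366, 4186 and 13541. The added fold change also left 6937 between the gates of WT, 6779 between those of KO and 2614 for the difference in KO effect, in place of 13541, 11039 and 4792, and that difference had 2856 calls at 0.01 and 3508 with males only, where 2093 higher calls became 1209.

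Among single members, 1071 values kept their direction and side of the threshold, 57 lost their call, 9 gained one and 20 changed sign, not counting left-out libraries. None of the values that changed sign had been called. In KO mTEChi, Cyp17a1 came to -0.203 with age, to -0.70 in males of 5 weeks, where it was called (edgeR, adjusted p = 0.0394), and to between -0.0214 and 0.482 with 1 library left out. Cyp2a5 came to 0.0491 with age and with a term for the 6 libraries, and to 0.11 without them. Cyp2g1 came to -0.0013 with only the groups compared, -3.7e-04 in males, -0.35 in males of 5 weeks and between -0.13 and 0.31 with 1 left out, and Cyp7b1 to -0.0035 in males of 5 weeks. In KO mTEClo, Cyp26b1 came to -0.0896 with no sex term, -0.60 without the 6 libraries and between -0.318 and 0.222 with 1 left out. With age, Cyp27b1 came to -0.13 and Cyp2d22 to -0.76, and Cyp2d22 to between -0.0232 and 0.376 with 1 left out. Cyp3a13 came to 0.0307 with no sex term, 0.24 with age, 0.58 without the 6 libraries and between -0.588 and 0.145 with 1 left out. Without the 6 libraries, Cyp2a5 came to 0.17 and Cyp7b1 to 0.0966. Between the gates of WT, Cyp2g1 came to -0.0165 with age, -0.0831 without the 6 libraries and between -0.0544 and 0.098 with 1 left out. With too few counts at this depth, 49 of the 94 members were not tested.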
